A study of Mus musculus with 17 samples.

Results

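Sertoli cells, the somatic cells that line the seminiferous tubule and nurse the germ cells, were followed through 10 genes that define them or carry their hormone signals: Sox9, Wt1, Gata4, Amh, Dhh, Inha, Inhbb, Fshr, Cldn11 and Clu. The genes were taken by symbol as a list, and all 10 were found among the 23980 genes of each of the 2 expression tables. All 10 also passed the filter on low counts, which left 14662 genes in leptotene/zygotene (L/Z) spermatocytes and 15901 genes in newborn (P0) testes. Poly(A)+ RNA had been sequenced from male mice of the C57BL6/J strain, the mutant lines having been backcrossed to C57BL/6J. The L/Z cells were purified by fluorescence-activated cell sorting at 3 to 4 weeks of age from Pld6 KO, Dnmt3l KO and wild-type (WT) mice, with 2 libraries of each. The P0 samples were whole testes, with 2 WT, 4 Pld6 KO, 2 Dnmt3l KO and 3 Pld6/Dnmt3l double KO (DKO) libraries. Libraries of a group are labelled biological replicates, but whether each came from 1 animal or from a pool is not given in the sources used here. Pld6 encodes a mitochondrial protein of PIWI-interacting RNA biogenesis, and Dnmt3l encodes a cofactor of de novo DNA methylation. Both act in germ cells, so the comparisons ask here how the RNA of a neighbouring somatic cell type differed between genotypes.

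In the fetal testis, SOX9 drives the Sertoli cell fate together with WT1 and GATA4, and the new Sertoli cells secrete anti-Müllerian hormone (AMH), which removes the female duct, and Desert hedgehog (DHH), which acts on the interstitial cells. Later the cells respond to follicle-stimulating hormone (FSH) through its receptor FSHR and return inhibin B, a dimer of the INHA and INHBB chains, to the pituitary. Claudin 11 seals the junctions of the blood-testis barrier that forms as the cells mature, when AMH falls, and clusterin is an abundant secreted glycoprotein of the Sertoli cell.

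The genes lie on separate loci of the mm10 (GRCm38) genome and are all protein-coding. Inha (chromosome 1, 75507077 to 75510366) and Inhbb (chromosome 1, 119415463 to 119422248) share a chromosome, as do Gata4 (chromosome 14, 63198914 to 63271712) and Clu (chromosome 14, 65968483 to 65981548). The others are Sox9 (chromosome 11, 112782210 to 112787757), Wt1 (chromosome 2, 105126529 to 105173614), Amh (chromosome 10, 80805240 to 80807679), Dhh (chromosome 15, 98881615 to 98898562), Fshr (chromosome 17, 88984952 to 89200675) and Cldn11 (chromosome 3, 31149920 to 31164326). The Dhh locus overlaps Rhebl1 on the same strand, so fragments in the overlap could have been given to either gene.

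RefSeq promoter windows were at hand for 5 of the 10 genes, and the 250 bases before the annotated start are printed for the receptor Fshr and the ligand Dhh, because these are the windows of the 5 that held a searched motif. Capitals mark the E-box CACGTG, which basic helix-loop-helix factors such as USF bind, and the GATA motif GATAAG or its reverse complement CTTATC. The start is that of the RefSeq promoter table, which for Dhh lies inside the locus given above. The build is GRCm38.p6 and both are written 5′ to 3′ on the gene's strand.
Fshr promoter, chr17:89200676-89200925, minus strand: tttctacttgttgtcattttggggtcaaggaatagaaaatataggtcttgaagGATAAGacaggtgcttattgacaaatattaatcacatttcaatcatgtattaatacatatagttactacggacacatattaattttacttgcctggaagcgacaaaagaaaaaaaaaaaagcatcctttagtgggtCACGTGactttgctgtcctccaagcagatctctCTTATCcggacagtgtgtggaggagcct
Dhh promoter, chr15:98898541-98898790, minus strand: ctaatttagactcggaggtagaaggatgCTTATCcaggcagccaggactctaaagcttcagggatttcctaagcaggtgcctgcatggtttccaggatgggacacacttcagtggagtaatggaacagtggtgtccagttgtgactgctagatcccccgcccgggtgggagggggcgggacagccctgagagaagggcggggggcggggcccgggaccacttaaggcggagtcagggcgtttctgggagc
The Fshr window held the E-box 61 bases before the start and GATAAG on either strand, 197 and 28 bases before the start, and the Dhh window held the GATA motif 222 bases before it. Of all 32851 windows of that length, 6.02% held the E-box and 6.55% the GATA motif on either strand. Neither the SOX motif ACAATG (10.7% of windows) nor the SF1 motif AAGGTCA (4.08%) occurred in the 5 windows, and the Inha, Inhbb and Cldn11 windows held none of these 4 sequences. The Inha window, chr1:75507359-75507608 on the plus strand, lay wholly inside the locus given above. The bases before that locus were therefore not searched for Inha. None of the motifs overlapped another. The Fshr window was AT-rich, at 36.8% GC, while the Dhh window had 59.6% and the Inhbb window 68%.

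The targeted genes were low or at 0 in the mutants labelled for them. Pld6 was at 19.0 and 19.5 FPKM (a level that divides fragments by the length of the transcript and by the depth of the library) in WT L/Z cells and at 0 in both Pld6 KO libraries, and at 2.95 and 2.08 FPKM in WT P0 testes and at most 0.147 FPKM in Pld6 KO and DKO testes. Dnmt3l was listed at 0 in both Dnmt3l KO L/Z libraries, a value given here without its WT level at that stage. In the Dnmt3l KO and DKO testes Dnmt3l was at most 0.112 FPKM, against 2.91 and 3.98 FPKM in WT testes. Libraries held 5194238 to 14578341 fragments at L/Z and 9900346 to 23498968 at P0. At L/Z the lowest count among the 10 genes was 5 fragments of Fshr, in Dnmt3l KO replicate 1, whereas at P0 the lowest was 162 fragments of Cldn11.

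In WT P0 testes, the levels per transcript length spanned from Clu at 1172.7 ± 46.7 FPKM (SD, n = 2) to Cldn11 at 11.3 ± 0.290 FPKM (SD, n = 2). Clu ranked as gene 55 and Inha as gene 86 of the table by WT FPKM, and Amh as gene 192. Inha was at 873 ± 58.6 FPKM, Amh at 317 ± 73.0 FPKM and Gata4 at 163 ± 11.1 FPKM (SD, n = 2 each). The order continued with Dhh at 77.7 ± 1.54, Inhbb at 75.5 ± 8.08 and Wt1 at 61.3 ± 26.4 FPKM (SD, n = 2 each), and the WT libraries of Dhh and Inhbb, and of Inhbb and Wt1, overlapped. Fshr at 25.0 ± 4.996 FPKM and Sox9 at 18.1 ± 4.48 FPKM (SD, n = 2 each) came before Cldn11. The RNA of Clu, Inha and Amh thus stood above that of Fshr and Sox9 in these testes, while that of the secreted signals Dhh and Inhbb stood below Gata4.

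**Figure D1:**
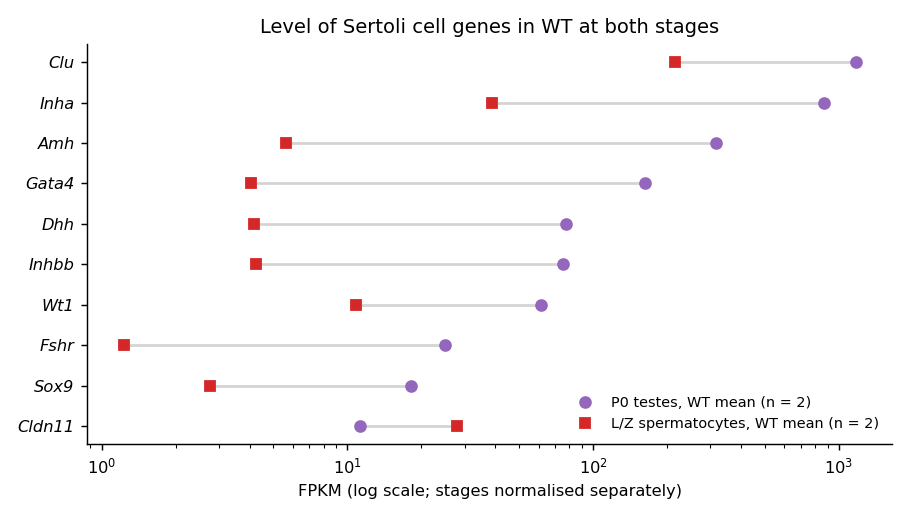
Mean FPKM (log axis) of each gene in the 2 WT libraries of P0 testes (circles) and of L/Z spermatocytes (squares), joined by a grey line. Of the 10 genes, 9 lie to the right at P0, and Cldn11 lies to the right at L/Z, at 28.0 against 11.3 FPKM.

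All 10 genes were also detected in every library of the sorted L/Z spermatocytes, which are germ cells and not Sertoli cells. Here the WT levels were 216 ± 68.4 FPKM for Clu, 38.8 ± 7.88 for Inha, 28.0 ± 6.38 for Cldn11 and 10.8 ± 2.54 for Wt1 (SD, n = 2 each), and these 4 did not overlap between neighbours in the order. Amh, Inhbb, Dhh, Gata4 and Sox9 followed between 5.60 and 2.77 FPKM, each overlapping the next, and Fshr was lowest at 1.23 ± 0.634 FPKM (SD, n = 2). For comparison, Sycp3, a synaptonemal complex protein of meiotic cells, was at 275 to 1119 FPKM in the L/Z libraries and at 4.15 to 34.5 FPKM in P0 testes.

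The proportions among the Sertoli cell genes differed between the tables. The tables were normalised separately and come from different tissues, ages and read types, so the WT levels are set side by side without a test. Amh in WT L/Z cells was 1.77% of its P0 FPKM, Gata4 2.50%, Inha 4.45%, Fshr 4.92%, Dhh 5.35% and Inhbb 5.61%. Sox9 was at 15.3%, Wt1 at 17.6% and Clu at 18.4%. Cldn11, the barrier claudin, was instead at 248% of its P0 level. The ratio of Cldn11 to Inha within a library was 0.483 to 0.909 over the 6 L/Z libraries and 0.0126 to 0.0290 over the 11 P0 libraries. The ratio of Amh to Inha was 0.0780 to 0.157 at L/Z and 0.171 to 0.762 at P0, so neither range overlapped between the stages.

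In Dnmt3l KO spermatocytes, all 10 Sertoli cell genes had lower values than in WT, by log2 fold changes of -1.03 to -1.76, but none passed the threshold (FDR under 0.05 and over 2-fold, edgeR quasi-likelihood test, 2 libraries against 2). Over all genes 5.47% were called, and 1.58% were called lower. Wt1 lay at the edge of the threshold and Cldn11 close to it. The difference was carried unequally by the Dnmt3l KO libraries, since replicate 2 was the lowest of the 6 libraries for all 10 genes. The share of all genes that were lowest in that library was not counted.

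Of the transcription factors, Wt1 was at 36.6 and 26.2 CPM (counts scaled to the effective size of each library) in WT, 38.7 and 31.6 CPM in Pld6 KO, and 18.0 and 9.30 CPM in Dnmt3l KO. Both Dnmt3l KO libraries were below all others, and Wt1 had a log2 fold change of -1.24 ± 0.34 (SE) against WT, with an FDR of 0.05001 (edgeR). Gata4 was at 17.2 and 8.84 CPM in WT, 19.5 and 9.15 CPM in Pld6 KO, and 6.999 and 3.36 CPM in Dnmt3l KO, again with both Dnmt3l KO libraries lowest (log2 fold change -1.39 ± 0.50 SE, FDR 0.11, edgeR). Sox9 was at 15.2 and 6.72 CPM in WT, 18.9 and 8.60 CPM in Pld6 KO, and 7.80 and 1.43 CPM in Dnmt3l KO. The higher Dnmt3l KO library of Sox9 lay above the lower WT library, and the log2 fold change was -1.39 ± 0.69 (SE, FDR 0.221, edgeR).

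Among the secreted signals, Amh was at 10.2 and 6.21 CPM in WT, 8.87 and 3.15 CPM in Pld6 KO, and 4.00 and 1.503 CPM in Dnmt3l KO. The Dnmt3l KO libraries were below both WT libraries but overlapped Pld6 KO, and the log2 fold change of Amh against WT was -1.68 ± 0.61 (SE, FDR 0.113, edgeR). Dhh was at 11.3 and 6.80 CPM in WT, 11.2 and 8.52 CPM in Pld6 KO, and 7.40 and 2.08 CPM in Dnmt3l KO. Dnmt3l KO overlapped WT for this ligand (log2 fold change -1.03 ± 0.54 SE, FDR 0.246, edgeR). For the inhibin chains, Inha was at 56.2 and 42.2 CPM in WT, 78.4 and 34.9 CPM in Pld6 KO, and 37.6 and 9.80 CPM in Dnmt3l KO. Inhbb was at 22.02 and 12.5 CPM in WT, 20.2 and 11.8 CPM in Pld6 KO, and 13.4 and 4.01 CPM in Dnmt3l KO. Both Dnmt3l KO libraries were below WT for Inha but not for Inhbb, with log2 fold changes of -1.11 ± 0.53 and -1.06 ± 0.52 (SE, FDR 0.203 and 0.213, edgeR).

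Fshr, the FSH receptor, had the lowest counts and the largest difference. It was at 3.64 and 1.70 CPM in WT, 3.20 and 1.81 CPM in Pld6 KO, and 1.00 and 0.644 CPM in Dnmt3l KO, where 5 and 9 fragments were counted. Both Dnmt3l KO libraries were below all others (log2 fold change -1.76 ± 0.68 SE, FDR 0.127, edgeR). Cldn11 was at 54.5 and 39.4 CPM in WT, 50.2 and 36.8 CPM in Pld6 KO, and 29.0 and 11.8 CPM in Dnmt3l KO, also without overlap (log2 fold change -1.24 ± 0.38 SE, FDR 0.07, edgeR). Clu was at 426 and 270.1 CPM in WT, 388 and 264 CPM in Pld6 KO, and 272 and 70.9 CPM in Dnmt3l KO. Its higher Dnmt3l KO library lay just above the lower WT library (log2 fold change -1.03 ± 0.48 SE, FDR 0.197, edgeR).

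**Figure D2:**
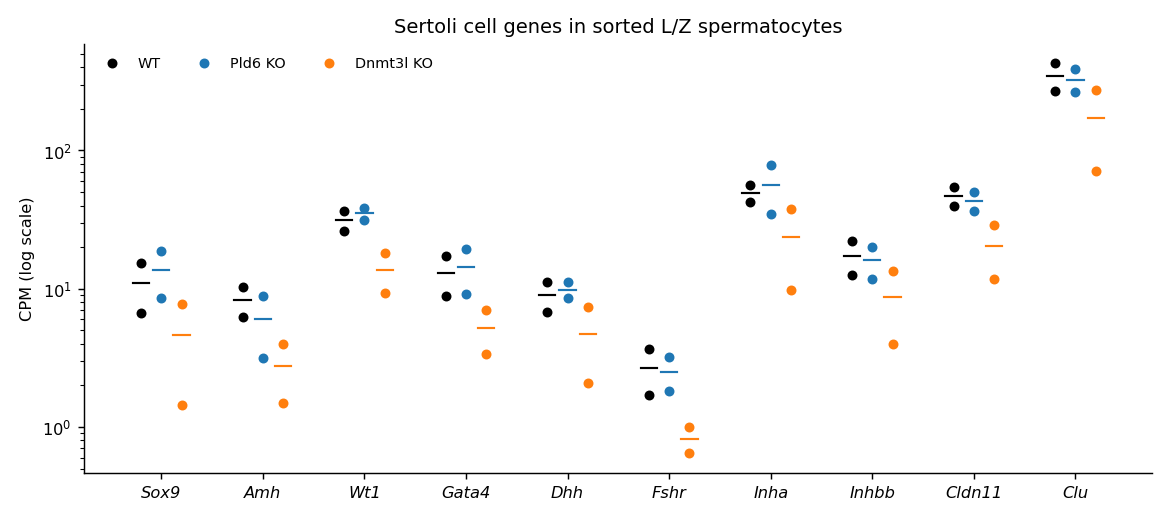
CPM (log axis) of each gene in the 6 L/Z libraries, 2 per genotype, with a short bar at the mean of each genotype. For every gene 1 Dnmt3l KO library is the lowest of all, and for Wt1, Gata4, Fshr and Cldn11 both Dnmt3l KO libraries are below the WT and Pld6 KO libraries. Over all genes, 27.5% had both Dnmt3l KO libraries below WT and 26.2% had both below Pld6 KO. The share below WT and Pld6 KO together was not counted.

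In all, 6 of the 10 genes had both Dnmt3l KO libraries below both WT libraries, while 27.5% of all genes did so. Under an unadjusted p of 0.05 (edgeR) were 5 of the 10 genes, all of them lower, against 11.7% of all genes in that direction. The DESeq2 Wald test called 2 of the 10, Wt1 and Cldn11, and limma on log2(FPKM + 1) called 0. Of all 14662 genes, DESeq2 called 994 and limma 530, with 348 and 156 of them lower. The median log2 fold change of the 10 was -1.24, and the median over all genes was -0.04. Without Dnmt3l KO replicate 2, the log2 fold changes were -0.29 to -1.41, with a median of -0.59, and without replicate 1 they were -1.78 to -2.96, with a median of -2.14. Wt1 was called without WT replicate 2, and both Wt1 and Cldn11 when either Pld6 KO library was left out of the fit that estimates the spread.

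In Pld6 KO spermatocytes the 10 genes had log2 fold changes against WT of -0.48 for Amh to 0.31 for Sox9, with 5 below 0 and a median of 0.01, which was 0.004 over all genes. These values moved with single libraries, as 9 were below 0 without Pld6 KO replicate 1 (median -0.45) or WT replicate 2 (-0.31), 1 without WT replicate 1 (0.42) and 0 without Pld6 KO replicate 2 (0.28). None of the 10 was called and none was under an unadjusted p of 0.05 (edgeR), while 0.225% of all genes were called and 9.17% were under that p, and DESeq2 and limma called none of the 10. The Pld6 KO and WT libraries overlapped for every one of the 10, although 21.3% of all genes had both Pld6 KO libraries lower and 21.6% had both higher. Fitted to the same libraries, Dnmt3l KO against Pld6 KO gave log2 fold changes of -0.94 for Clu to -1.70 for Sox9, and the comparisons share their Dnmt3l KO samples. None of the 10 was called in edgeR (0.0477% of all genes were), with 6 under an unadjusted p of 0.05, all lower (8.46% of all genes). Wt1 was the nearest, at -1.40 ± 0.34 (SE, FDR 0.125, edgeR), and was the only one that DESeq2 called. DESeq2 called 355 of all 14662 genes in this comparison. The median of the 10 was -0.88 without Pld6 KO replicate 1, -1.65 without Pld6 KO replicate 2, -2.06 without Dnmt3l KO replicate 1 and -0.58 without Dnmt3l KO replicate 2, against -1.25 with all libraries.

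Across the L/Z libraries the 10 genes tended to rise and fall together. Relative to the WT mean, their median log2 level was 0.32 in WT replicate 1 and -0.41 in WT replicate 2, and 0.28 and -0.45 in the Pld6 KO libraries. It was -0.60 and -2.11 in the Dnmt3l KO libraries, or 66.2% and 23.1% of the WT mean. All 45 pairs of genes had a Pearson r of log2 CPM over 0.7 across the 6 libraries, from 0.857 to 0.992 with a median of 0.946. The 6 points differ in genotype and depth together, and Dnmt3l KO replicate 2 is the lowest point of every gene, so the coefficients are descriptive. Within a library the genes still differed, as in Pld6 KO replicate 2, from -1.38 for Amh to 0.01 for Wt1 relative to the WT mean. In bulk RNA, the number of Sertoli cells left after a sort for spermatocytes, the RNA per Sertoli cell and RNA made by the germ cells themselves cannot be told apart.

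**Figure D3:**
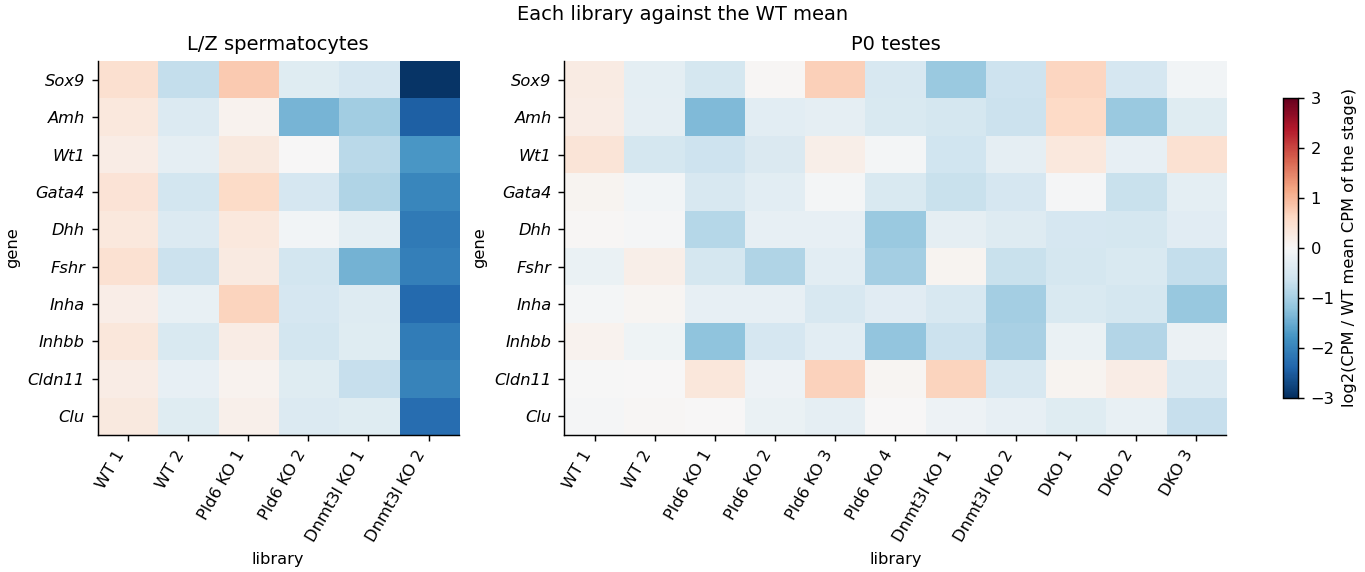
Log2 ratio of CPM to the WT mean of the same stage for each gene (rows) in the 6 L/Z libraries and the 11 P0 libraries (columns), from blue (lower) to red (higher). At L/Z the genes share a sign within each library, except in Pld6 KO replicate 2, where 9 are below the WT mean. The median in L/Z Dnmt3l KO replicate 2 is -2.11. At P0 genes of the same library differ in sign, except in Dnmt3l KO replicate 2, where all 10 are below the WT mean.

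Markers of other cells also differed between the L/Z libraries. Markers of L/Z spermatocytes summed to 3556 and 3220.0 FPKM in Dnmt3l KO but 914 to 1901 FPKM in the other 4 libraries, and 6 of their 10 genes were called higher in Dnmt3l KO than in WT: Dmc1, Hormad1, Meiob, Prdm9, Sycp1 and Sycp2, with log2 fold changes of 1.30 to 2.17, where 3.89% of all genes were called higher. DESeq2 called 8 of these 10 and limma 3, against 994 and 530 of all 14662 genes. The 5 macrophage markers summed to 46.5 FPKM in Dnmt3l KO replicate 2 and 5.64 to 19.8 FPKM elsewhere, and Mrc1, a mannose receptor, was the 1 of 5 that was called (log2 fold change 1.92, FDR 0.0395, edgeR). The complement genes C1qa and C1qb were at 16.2 and 15.1 FPKM in that library and at most 7.75 FPKM in the others. Peritubular myoid markers, led by Acta2 and Tagln, summed to 25.5 to 73.8 FPKM, the highest sums being in Dnmt3l KO replicate 2 and WT replicate 1, while endothelial markers, led by Cdh5 and Pecam1, summed to 2.98 to 10.4 FPKM. Leydig cell markers, led by Insl3 and Hsd3b1, summed to 2.45 to 19.9 FPKM, with 5 of the 8, Cyp11a1, Cyp17a1, Hsd3b1, Insl3 and Lhcgr, at 0 in Dnmt3l KO replicate 1. Erythroid markers, led by Hba-a1 and Hbb-bt, were at or below 8.40 FPKM in sum, with Slc4a1 at 0 in every library. Granulosa cell markers, led by Fst and Rspo1, summed to 2.41 to 11.1 FPKM, and Foxl2, their defining factor, was at 0 in WT replicate 1 and both Dnmt3l KO libraries. Prospermatogonia markers, led by Dazl and Mael, summed to 1049.5 to 1778 FPKM and late germ cell markers, led by Ldhc and Tnp1, to 13.0 to 37.2 FPKM, with Prm2 at 0 in every library. The part of these cell types in the lower Sertoli cell genes was not tested.

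The libraries also differed technically. The correlation of a gene's deviation with its GC content was 0.346 and 0.337 (Spearman's rho across genes) in WT and -0.260 and -0.434 in Dnmt3l KO, and the transcripts of the 10 genes have 46.6% to 65.4% GC, against a median of 48.7% over all genes. When each library was corrected for GC content and transcript length, the median log2 fold change of the 10 in Dnmt3l KO against WT was -0.99 with none called. Pre-ribosomal 45S RNA made up 8.27% of the WT replicate 1 library, 8.06% of the Pld6 KO replicate 1 library and at most 0.301% in the other 4 L/Z libraries. A factor for those 2 libraries gave a median of -0.79 with none called, and all 10 stayed below 0 under both.

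A wider list of 32 Sertoli cell markers without the 10 had 28 genes tested at L/Z, of which 3 fell in Dnmt3l KO against WT and none rose, where 1.58% of all genes were called lower. Under an unadjusted p of 0.05 (edgeR) were 15 of the 28, against 26.7% of all genes. DESeq2 called 6 and limma 1, against 994 and 530 of all 14662 genes. The 3 were Nr5a1, the steroidogenic factor SF1, with a log2 fold change of -1.54, Espn, an actin-bundling protein of Sertoli cell junctions, at -1.47, and the Polycomb protein gene Cbx2 at -1.06 (FDR 0.0468, 0.0234 and 0.0288, edgeR). Nr5a1 was at 6.05 and 4.99 FPKM in WT, 6.62 and 4.00 FPKM in Pld6 KO, and 2.73 and 1.28 FPKM in Dnmt3l KO. Of the 28 genes, 22 had log2 fold changes below 0, with a median of -0.92. The highest of the list in WT were Dmrt1, which germ cells also express, at 257 and 267 FPKM, and the cystatin Cst12 at 172 and 129 FPKM, and Cst12 was at 99.7 and 28.7 FPKM in Dnmt3l KO. In Pld6 KO against WT at L/Z none of the 28 was called by edgeR, DESeq2 or limma. Of them 2 were under an unadjusted p of 0.05 (edgeR), against 9.17% of all genes. At P0 the highest in WT were Vim, an intermediate filament gene that other somatic cells also express (651 to 1320 FPKM over the 11 libraries), and the protease gene Ctsl (446 to 903 FPKM). None of the 32 was called against WT at P0 by edgeR, DESeq2 or limma. Under an unadjusted p of 0.05 (edgeR) were 6, 5 and 12 in Pld6 KO, Dnmt3l KO and DKO, against 5.06%, 12.9% and 7.97% of all genes. The median log2 fold changes of the 32 were -0.30, -0.27 and -0.32 in the same order.

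In P0 testes, where Sertoli cells are a large component, the 10 genes spanned a narrower range of values, and none was called in any of the 6 comparisons. The span from the lowest to the highest library was 1.65-fold for Clu to 3.83-fold for Amh over 11 libraries, while at L/Z it was 4.16-fold for Wt1 to 13.2-fold for Sox9 over 6. The values of the inhibin chains and of Dhh were lower in all mutant testes than in both WT testes, which was noticed after the values were seen. Over all genes, 1.63% had both WT libraries above the 9 mutant libraries and 1.84% had both below.

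The inhibin chains and Dhh are given first. Inhbb was at 81.3 and 69.8 FPKM in WT, 33.0, 52.7, 60.9 and 33.1 FPKM in Pld6 KO, 47.4 and 38.3 FPKM in Dnmt3l KO, and 65.1, 40.6 and 66.7 FPKM in DKO. Against WT, Pld6 KO, Dnmt3l KO and DKO had log2 fold changes of Inhbb of -0.75 ± 0.26, -0.80 ± 0.31 and -0.38 ± 0.28 (SE, FDR 0.963, 0.344 and 0.786, edgeR). DKO lay nearest to WT in value, and its departure from additive single-KO effects was 1.17 ± 0.39 (SE), which did not pass adjustment (FDR 0.389, edgeR). Inha was at 832 and 915 FPKM in WT, 739, 740.0, 630.0 and 696 FPKM in Pld6 KO, 609 and 418 FPKM in Dnmt3l KO, and 626, 593 and 395 FPKM in DKO. Every mutant library was again below WT, with log2 fold changes of -0.32 ± 0.21, -0.72 ± 0.25 and -0.68 ± 0.22 in the same order (SE, FDR 0.97, 0.314 and 0.442, edgeR). Dhh was at 78.8 and 76.6 FPKM in WT and at 35.9 to 65.7 FPKM in the 9 mutant libraries, the lowest being Pld6 KO replicates 1 and 4 at 43.2 and 35.9 FPKM. Its log2 fold changes were -0.56 ± 0.22, -0.34 ± 0.25 and -0.45 ± 0.23 in Pld6 KO, Dnmt3l KO and DKO (SE, FDR 0.963, 0.576 and 0.657, edgeR).

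Amh was the most variable of the 10 at this age. It was at 369 and 265 FPKM in WT, 126, 256, 265 and 231 FPKM in Pld6 KO, 212 and 197 FPKM in Dnmt3l KO, and 477, 143 and 245 FPKM in DKO, so that DKO held the highest library of all and the second lowest. For Amh, the log2 fold changes of Pld6 KO, Dnmt3l KO and DKO were -0.53 ± 0.37, -0.60 ± 0.44 and -0.12 ± 0.40 (SE, FDR 0.97, 0.567 and 0.964, edgeR). Fshr was at 21.5 and 28.6 FPKM in WT, 17.3, 13.4, 20.002 and 12.3 FPKM in Pld6 KO, 25.8 and 15.6 FPKM in Dnmt3l KO, and 17.0, 17.8 and 15.0 FPKM in DKO. All Pld6 KO and DKO libraries of Fshr were below WT while Dnmt3l KO overlapped it, with log2 fold changes of -0.67 ± 0.23, -0.24 ± 0.27 and -0.57 ± 0.24 in Pld6 KO, Dnmt3l KO and DKO (SE, FDR 0.963, 0.71 and 0.572, edgeR).

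**Figure D4:**
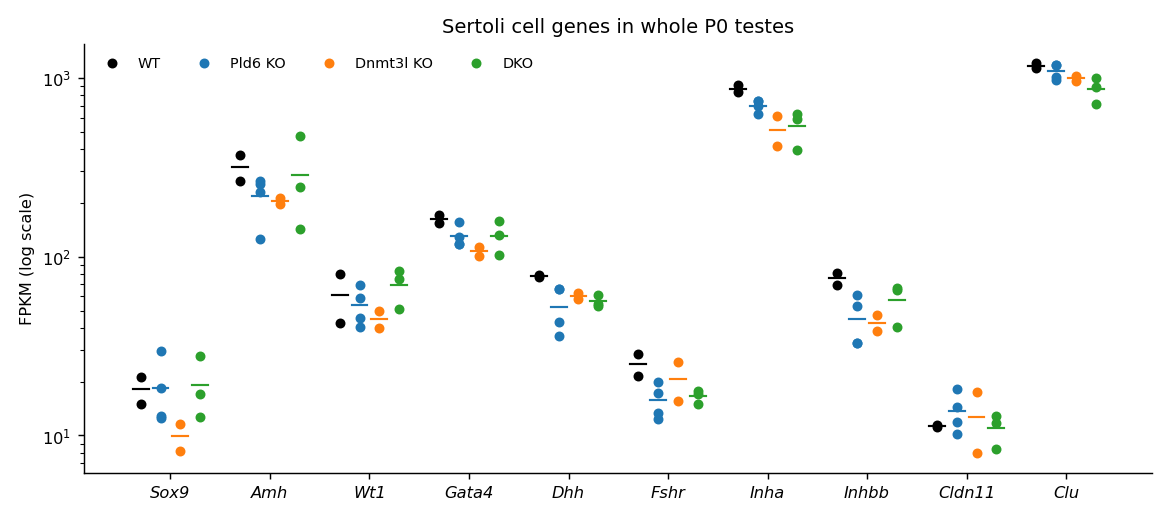
FPKM (log axis) of each gene in the 11 P0 libraries (2 WT, 4 Pld6 KO, 2 Dnmt3l KO and 3 DKO), with a short bar at the mean of each genotype. Both WT points lie above all mutant points for Dhh, Inha and Inhbb, and every mutant genotype overlaps WT for Wt1 and Cldn11.

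Among the transcription factors, Pld6 KO and DKO overlapped WT. Sox9 was at 21.3 and 15.0 FPKM in WT, 12.5, 18.4, 29.7 and 12.9 FPKM in Pld6 KO, 8.20 and 11.6 FPKM in Dnmt3l KO, and 27.8, 12.7 and 17.0 FPKM in DKO. Dnmt3l KO held the 2 lowest libraries of Sox9, which had a log2 fold change of -0.85 ± 0.41 against WT (SE, FDR 0.397, edgeR), and DKO was higher than Dnmt3l KO by 0.95 ± 0.38 (SE, FDR 0.231, edgeR). Wt1 was at 79.9 and 42.6 FPKM in WT, 40.3 to 69.3 FPKM in Pld6 KO, 39.9 and 49.8 FPKM in Dnmt3l KO, and 74.8, 51.0 and 83.0 FPKM in DKO, so the WT libraries alone spanned most of the range. Gata4 was at 170.4 and 155 FPKM in WT, 117 to 156 FPKM in Pld6 KO, 101 and 114 FPKM in Dnmt3l KO, and 157, 102 and 132 FPKM in DKO. The log2 fold changes of Gata4 were -0.32 ± 0.19, -0.58 ± 0.22 and -0.30 ± 0.20 in Pld6 KO, Dnmt3l KO and DKO (SE, FDR 0.963, 0.342 and 0.75, edgeR), and only Dnmt3l KO lay wholly below WT in CPM among these 3 genotypes.

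Cldn11, the barrier claudin, was at 11.1 and 11.5 FPKM in WT, 14.4, 10.1, 18.3 and 11.8 FPKM in Pld6 KO, 17.6 and 7.93 FPKM in Dnmt3l KO, and 11.7, 12.9 and 8.36 FPKM in DKO. The 2 Dnmt3l KO libraries fell on either side of WT, and the log2 fold changes were 0.27 ± 0.31, 0.21 ± 0.35 and -0.02 ± 0.32 in Pld6 KO, Dnmt3l KO and DKO (SE, FDR 0.97, 0.81 and 0.994, edgeR). Clu was at 1139.7 and 1206 FPKM in WT, 977 to 1186 FPKM in Pld6 KO, 1026 and 963 FPKM in Dnmt3l KO, and 893, 995 and 717 FPKM in DKO. All Dnmt3l KO and DKO libraries of Clu were below both WT libraries, and its largest log2 fold change was -0.41 ± 0.20 in DKO (SE, FDR 0.631, edgeR).

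**Figure D5:**
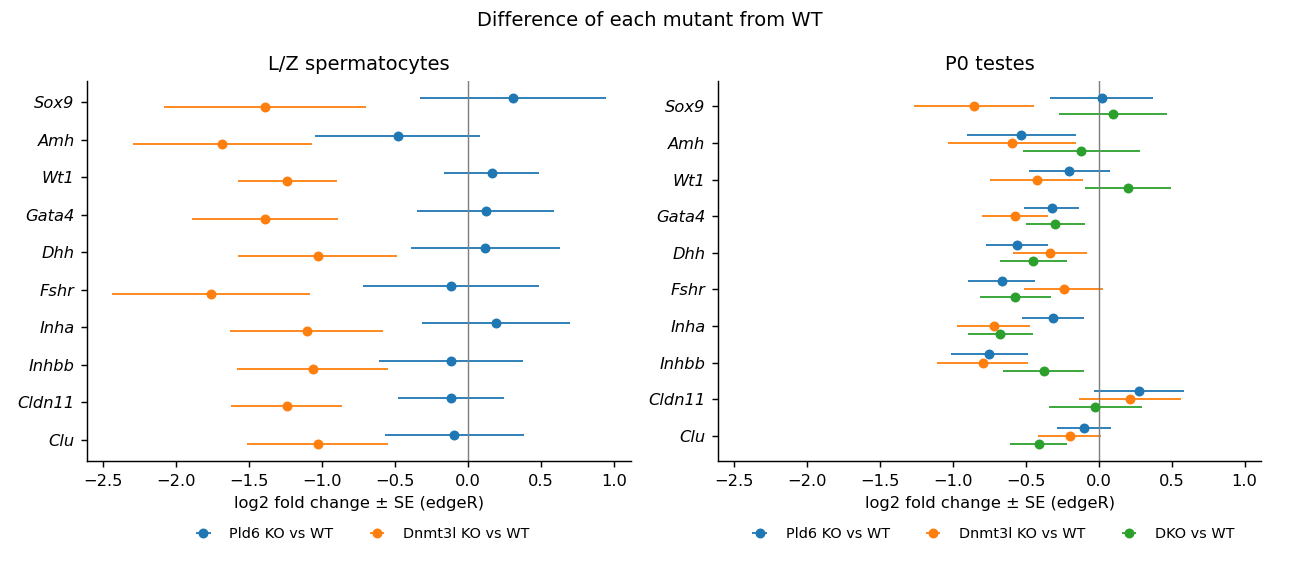
Log2 fold change of each gene against WT with its SE (horizontal bars, edgeR), at L/Z (left) and at P0 (right), by mutant. At L/Z the Dnmt3l KO points lie between -1.03 and -1.76, and at P0 all points lie between -0.85 and 0.27.

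Counted over the list, 8, 9 and 8 of the 10 genes had lower values than WT in Pld6 KO, Dnmt3l KO and DKO testes, with median log2 fold changes of -0.32, -0.50 and -0.34. The medians over all genes were 0.02, 0.03 and 0.01, and the 3 comparisons share their WT libraries. The shares of all genes called were 0.00629%, 0.0% and 0.0126% in the same order. Under an unadjusted p of 0.05, all in the lower direction, were Dhh, Fshr and Inhbb in Pld6 KO, Gata4, Inha and Inhbb in Dnmt3l KO, and Fshr and Inha in DKO, that is 3, 3 and 2 of 10, where 1.92%, 6.69% and 2.84% of all genes were lower at that level. All libraries of the mutant were below both WT libraries in CPM for 4, 7 and 5 of the 10 genes, against 5.69%, 24.3% and 13.4% of all genes. DESeq2 and limma on log2(FPKM + 1) called none of the 10 in these comparisons.

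Between the mutants, none of the 10 was called in DKO against Pld6 KO (0.0% of all genes called, 0 of 10 and 6.02% of all genes under an unadjusted p of 0.05) or in DKO against Dnmt3l KO (0.0755% of all genes called, 1 of 10, Sox9, and 17.8% of all genes under that p). The log2 fold changes were -0.36 for Inha to 0.41 for Amh in the first and -0.33 for Fshr to 0.95 for Sox9 in the second. The departure of the DKO from additive effects was above 0 for 8 of the 10 genes, with a median of 0.52 against -0.04 over all genes, and was not called for any (0.0% of all genes called, 1 of 10, Inhbb, and 10.9% of all genes under an unadjusted p of 0.05). DESeq2 and limma called none of the 10 in these 3 comparisons either.

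Unlike at L/Z, the 10 genes did not move together at P0. Their pairwise Pearson r of log2 CPM over the 11 libraries ran from -0.562 (Wt1 with Clu) to 0.842 (Sox9 with Gata4), with a median of 0.282, and 6 of the 45 pairs were over 0.7. High pairs joined Amh, Gata4, Inhbb, Sox9 and Dhh, such as Dhh with Inhbb (0.819), Gata4 with Inhbb (0.809) and Amh with Gata4 (0.786), and a separate high pair was Inha with Clu (0.801). In DKO replicate 3, for example, Wt1 was at its highest over the 11 libraries and Inha and Clu at their lowest. The mean of the 10 standardised profiles was highest in WT replicate 1, at 0.97, followed by Pld6 KO replicate 3 at 0.62 and WT replicate 2 at 0.59, and lowest in Dnmt3l KO replicate 2, at -0.71. Among 12537 other genes averaging 50 counts or more, the 5 closest to that mean profile were Zfand2a (r = 0.955), Sema7a (r = 0.941), Zmym3 (r = 0.937), Bcl2l13 (r = 0.924) and 4931428F04Rik (r = 0.92), over 11 libraries of 4 genotypes that also differ in depth. The wider Sertoli cell markers had r from -0.696 to 0.832 with that profile, with a median of 0.457 against 0.0158 over all genes.

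The genes that receive these signals were examined as 3 lists. In the AMH and activin/inhibin list, 1 of 16 genes tested was called higher in Dnmt3l KO against WT at L/Z and none lower, where 3.89% of all genes were called higher. It was the activin receptor gene Acvr2a (7.05 and 9.57 FPKM in WT, 19.5 and 16.0 FPKM in Dnmt3l KO, log2 fold change 1.09, FDR 0.0316, edgeR). Of the 16 genes, 12 had log2 fold changes below 0, with a median of -0.345. There 6 were under an unadjusted p of 0.05 (edgeR), against 26.7% of all genes. DESeq2 called 1 of the 16 and limma 0, against 994 and 530 of all 14662 genes. Amhr2, the AMH receptor, was at 33.4 and 25.0 FPKM in WT L/Z cells and at 25.4 and 7.18 FPKM in Dnmt3l KO, and Smad4, the shared signal transducer, at 28.1 and 33.1 FPKM in WT and 28.2 and 31.8 FPKM in Dnmt3l KO. At P0 none of 17 was called against WT by edgeR, DESeq2 or limma. Under an unadjusted p of 0.05 (edgeR) at P0 were 0, 2 and 2 genes in Pld6 KO, Dnmt3l KO and DKO, against 5.06%, 12.9% and 7.97% of all genes. There Bmpr1a was at 42.9 to 56.0 FPKM, and Inhba, whose product pairs with INHA to form inhibin A, at 35.6 to 68.6 FPKM.

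In the hedgehog list, through which DHH acts on interstitial cells, none of 11 genes was called in Dnmt3l KO against WT at L/Z by edgeR. Of them 3 were under an unadjusted p of 0.05 (edgeR, 26.7% of all genes). DESeq2 called 1 and limma 0, against 994 and 530 of all 14662 genes. Smo, the signal transducer, was at 8.82 and 8.04 FPKM in WT and 4.83 and 4.90 FPKM in Dnmt3l KO. Sufu was at 7.49 and 7.63 FPKM in WT and 8.63 and 9.36 FPKM in Dnmt3l KO. At P0 the target genes Gli1 and Ptch1 were at 56.1 and 53.3 FPKM and 59.1 and 45.2 FPKM in WT, and at 41.5 and 50.4 FPKM and 24.5 and 33.6 FPKM in Dnmt3l KO. None of the 11 was called against WT at P0 by edgeR, DESeq2 or limma. Under an unadjusted p of 0.05 (edgeR) were 1, 3 and 2 in Pld6 KO, Dnmt3l KO and DKO, against 5.06%, 12.9% and 7.97% of all genes. The counts with log2 fold changes below 0 were 3, 10 and 2 in the same order, with medians of 0.08, -0.27 and 0.11 over the 11 genes. Of the 12 genes of FSH receptor signalling, none was called against WT at either stage by edgeR, DESeq2 or limma. At L/Z, 0 (Pld6 KO) and 2 (Dnmt3l KO) were under an unadjusted p of 0.05 (edgeR), against 9.17% and 26.7% of all genes. At P0, 1, 2 and 1 were under that p in Pld6 KO, Dnmt3l KO and DKO, against 5.06%, 12.9% and 7.97% of all genes. Gnas, the G-protein subunit downstream of FSHR, was at 67.0 and 74.0 FPKM in WT and 51.7 and 39.2 FPKM in Dnmt3l KO at L/Z, and at 682 to 1059 FPKM at P0. Prkar1a, a regulatory subunit of protein kinase A, was at 76.5 to 103 FPKM at L/Z and 103 to 138 FPKM at P0.

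At P0 the markers of other cells also differed between libraries. Granulosa cell markers, the ovarian counterpart, summed to 12.5 and 13.6 FPKM in WT and 14.8 to 35.6 FPKM in the mutants, led by Wnt4 and Rspo1, and Rspo1 was at 2.49 and 4.205 FPKM in WT and up to 15.9 FPKM in Pld6 KO replicate 4. None of these 8 markers was called against WT. The counts with log2 fold changes below 0 were 2, 2 and 5 in Pld6 KO, Dnmt3l KO and DKO, with medians of 0.20, 0.34 and -0.08. Leydig cell markers, led by Hsd3b1 and Insl3, summed to 1107 to 2957 FPKM and peritubular myoid markers, led by Acta2 and Tagln, to 325 to 738 FPKM, both highest in Pld6 KO replicate 4, where Dhh and Fshr were lowest. Prospermatogonia markers, led by Mael and Dazl, summed to 66.5 FPKM in Pld6 KO replicate 1, where Amh and Inhbb were lowest, and 110.9 to 212 FPKM elsewhere. Late germ cell markers, led by Ldhc and Spaca1, summed to 59.8 FPKM in Dnmt3l KO replicate 1 and 38.5 FPKM in Pld6 KO replicate 1, against 2.57 to 7.71 FPKM in the other 9. Meiotic markers summed to 113 FPKM in Dnmt3l KO replicate 1, where Sox9 and Gata4 were lowest, and 22.6 to 48.3 FPKM in the others. Endothelial markers ranged from 119 to 165 FPKM, macrophage markers from 42.8 to 79.9 FPKM and erythroid markers, led by Hbb-bt and Hba-a1, from 354 to 2031 FPKM. Their part in the levels of the Sertoli cell genes was not tested. The correlation of a gene's deviation with its GC content (Spearman's rho across genes) was 0.167 and -0.004 in the WT testes and -0.385 and -0.388 in Dnmt3l KO. It was -0.061 to 0.354 in Pld6 KO and 0.007 to 0.260 in DKO. Corrected for GC content and length, the median log2 fold changes of the 10 genes were -0.41, -0.41 and -0.44 in Pld6 KO, Dnmt3l KO and DKO, with none called. In DKO against Dnmt3l KO the correction moved the median from 0.16 to -0.07, with 7 of the 10 below 0.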

How the data were processed

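The authors aligned stranded poly(A)+ reads (single 50-bp at L/Z, paired 100-bp at P0) to mm10 with TopHat2 and quantified RefSeq genes with Cuffdiff (full versions not given in the sources used here). The deposited tables hold, per gene and library, an estimated count of fragments before scaling and an FPKM, scaled by Cuffdiff separately for each stage. Cuffdiff splits fragments of overlapping genes by likelihood, so such genes are less certain. Replicates were not pooled. The tables number replicates from 0, and the lowest was taken as replicate 1 of the labels.

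Estimated counts were rounded and tested with edgeR 4.0.16 under R 4.3.3 (filterByExpr, TMM, glmQLFit, glmQLFTest) with all groups of a stage in 1 fit. The call threshold was an FDR (Benjamini-Hochberg) under 0.05 and a fold change over 2, and the DKO departure at an FDR under 0.05. P-values rest on labelled biological replicates, 2 to 4 per group. The 10 genes and all 13 gene lists were chosen with earlier results of these data known. All 10 genes, every called list gene, the 2 highest list genes by WT FPKM and the 5 most similar genes at P0 were named. Other tools were limma 3.58.1, DESeq2 1.42.0 and Python 3.11.15. Promoters and positions came from RefSeq GRCm38.p6. Alternatives were other size factors, filters, tools, sample sets, pseudocounts, a replicate block and leaving out each replicate, and, chosen after seeing the data, a GC and length offset (loess, span 0.3), a 45S rRNA factor and a crossed replicate block.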

Additional observations from a re-analysis of the deposited data

How the results depend on the processing

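With all libraries, 0 of the 10 genes were called in each of the 9 comparisons, and at P0 this stayed at 0 under every alternative. In Dnmt3l KO against WT L/Z cells, 2 were called without the filter on low counts, by the DESeq2 Wald test, with the compared groups only and with the crossed replicate block (Wt1 and Cldn11 each time), and 1, Wt1, with a mean of at least 50 counts. Leaving out 1 replicate gave 0 to 2. Of all genes, 802 of 14662 were called with the main settings and 1011 of 19905 without the filter. DESeq2 called 994 of 14662, the compared groups only 951 of 14662 and the crossed block 1282 of 14662. With a mean of at least 50 counts it was 682 of 11031. With the replicate number as a block, 6 of the 10 genes were called (Amh, Wt1, Gata4, Inha, Cldn11 and Clu), and 912 of all 14662. The labels do not say that a number marks a shared litter or batch. Deviations of same-numbered libraries correlated at 0.485 for WT with Pld6 KO but -0.144 and -0.135 for Dnmt3l KO with WT and Pld6 KO, and replicate 1 was above replicate 2 for all 10 genes in each L/Z genotype. Replicate 1 of WT and of Pld6 KO also shared the high 45S RNA. The block changed no call at P0. In Dnmt3l KO against Pld6 KO, 1 gene, Wt1, was called without the filter, by DESeq2 and with the crossed block. Of all genes, 193 of 19905, 355 of 14662 and 516 of 14662 were called there, in the same order. The cause was not tested.

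All 10 genes kept log2 fold changes below 0 in Dnmt3l KO against WT at L/Z under every alternative run, except that Fshr was not tested with a mean of at least 50 counts. Of the uncalled values larger than their SE, some turned direction at P0. Against WT, Wt1 in Dnmt3l KO was at 0.0788 without WT replicate 1 and -0.82 without WT replicate 2, the ends of its range over left-out replicates. In DKO against Pld6 KO, Amh ranged from -0.16 (without DKO replicate 1) to 0.74 (without DKO replicate 2). In DKO against Dnmt3l KO, leaving out the same libraries gave -0.0936 to 0.80 for Amh, leaving out a Dnmt3l KO library gave -0.65 to 0.0851 for Fshr, and Gata4 was at -0.000449 and Inhbb at -0.0466 with the GC and length offset. The DKO departure of Cldn11 ranged from -0.97 (without Dnmt3l KO replicate 2) to 0.18 (without Dnmt3l KO replicate 1). Depth limited Fshr most at L/Z, with 5 to 43 fragments per library.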
